A study of Mus musculus with 37 samples.

Results

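Urea cycle and amino acid catabolism in the liver was followed through 35 genes, taken by symbol from the 55487 genes of a mouse liver RNA sequencing table. Each symbol matched 1 row, and all 35 passed the filter on low counts that left 15564 genes for testing. The libraries came from whole liver of wild-type (WT) mice and of Nox4 knockout (KO) mice, which lack an NADPH oxidase that makes hydrogen peroxide. Livers were taken after partial hepatectomy, an operation that removes much of the organ and sets off its regrowth, or after sham surgery. The question of the study, as far as its title gives it, is whether regeneration proceeds faster without Nox4.

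After hepatectomy there were 3 livers of each genotype at 6 h, 3 WT and 4 KO livers at 24 h, 4 of each genotype at 48 h and 3 of each at 7 d. Each genotype had 5 sham livers, pooled over the time since surgery. In WT, sham replicate 5 was taken at 6 h, replicate 3 at 24 h, replicates 2 and 4 at 48 h and replicate 1 at 7 d. In KO, sham replicate 5 was taken at 6 h, replicate 1 at 24 h, replicates 2 and 3 at 48 h and replicate 4 at 72 h. Every liver taken 6 h after hepatectomy was male, and the other groups held both sexes. Strain, age, feeding state, hour of collection and type of Nox4 allele are not in the labels, which also do not name a cell type to which the knockout was limited. Replicates are separate samples in the labels, which do not name the animals, so that p-values measure the spread between these samples. In whole liver, fewer cells of a type and less RNA per cell cannot be told apart.

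Hepatocytes strip nitrogen from amino acids and pass it, as ammonia and aspartate, into the urea cycle, which runs partly in the mitochondrion and partly in the cytosol. The remaining carbon enters glucose synthesis, ketone body synthesis or the citric acid cycle. Most of these enzymes are abundant in the adult liver, the urea cycle mainly around the portal vein. Several of them, among them tyrosine aminotransferase and serine dehydratase, are textbook targets of glucocorticoids and glucagon.

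Total counts ranged from 26232544 to 48827025 per library. Nox4 was lower in KO than in WT within each sex, at 3.95 to 23.5 CPM (counts scaled for library size) in 11 WT males against 0.325 to 4.98 in 12 KO males, and at 0.778 to 3.36 in 7 WT females against 0 to 0.245 in 7 KO females. The 8 hepatocyte markers had a summed level of 62352 to 192196 CPM over the 37 libraries, and none was at 0. Some libraries stood apart and are followed through the results. The sham livers taken at 6 h, replicate 5 of each genotype, lay between the 6 h hepatectomy livers and the other sham livers on the first principal component. They scored 40.9 in WT and 19.3 in KO, against 61.2 to 91 in the hepatectomy livers and -57.4 to -15.4 in the other sham livers. KO 24 h replicate 1 scored -26.8, whereas replicates 2, 3 and 4 scored 90.6, 122 and 98. WT 24 h replicate 3 had the highest share of mitochondrial counts of all libraries, 8.93%, and WT 48 h replicate 3 the highest score of its group, 25.2.

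In the WT sham livers the 35 genes spanned a wide range of levels per kilobase of transcript (RPKM). The highest median levels were those of Ass1 (1884 RPKM), Gnmt (1714 RPKM), Hpd (1182 RPKM) and Mat1a (1059 RPKM), followed by Tat (453 RPKM) and Cps1 (414 RPKM). The lowest were Gldc (14.2 RPKM), Kynu (12.9 RPKM) and Sdsl (6.14 RPKM). Neighbours in this order overlapped over the 5 livers, for example Ass1 at 1292 to 2759 RPKM and Gnmt at 852 to 2080 RPKM. Sdsl at 4.93 to 20.4 RPKM and Kynu at 9.69 to 17.9 RPKM overlapped as well.

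**Figure D1:**
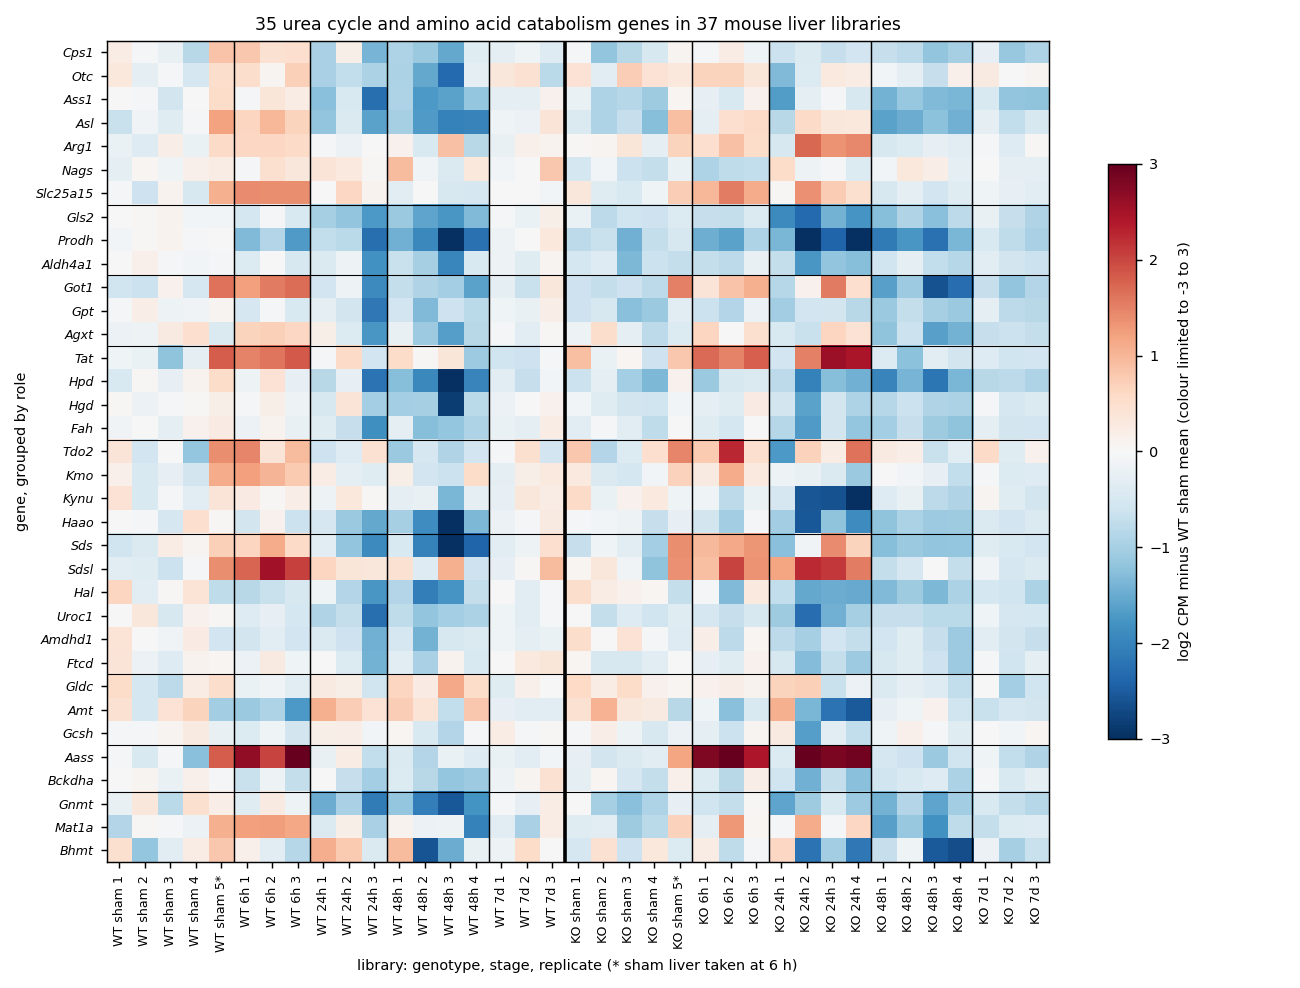
Log2 CPM of each gene (rows, grouped by role) in each library (columns), minus the mean of the 5 WT sham livers, with red for higher and blue for lower values. Aass, Tat and Got1 are red in the 6 h livers, sham livers included, and most rows are blue in WT at 48 h. KO 24 h replicate 1 lacks the red of replicates 2 to 4 in Aass, Tat and Arg1.

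The genes split into a few that rose early and many that fell later. At 6 h after hepatectomy Aass and Slc25a15 rose in both genotypes, with Sdsl rising and Prodh falling in WT. By 48 h in WT, 17 of the 35 genes had fallen and none had risen. In KO the largest number of changes came at 24 h, when 9 genes were lower and 4 were higher than in sham. At 7 d no gene passed the test in either genotype.

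These counts were read against all 15564 genes tested in the same fit, an edgeR quasi-likelihood model of the 37 libraries with an adjusted p under 0.05. At 6 h in WT 3 genes were higher and 1 was lower, where 7.86% of all genes were called. Without a scaling factor 2 were higher and 7 lower there. The factors left out were 0.658 to 0.761 in the WT 6 h livers and 0.735 to 1.14 in WT sham. Leaving them out shifts all genes, so these 2 counts do not bear on the 35 genes alone. At 24 h in WT 3 genes were lower and 0 higher, where 0.925% of all genes were called. At 48 h in WT 17 genes were lower, where 3.62% of all genes were called lower and 8.29% in either direction. The median log2 change of the 35 genes at 48 h was -0.89, beside 0.07 for all genes, and 30 of the 35 were below 0. In KO 2 genes were higher at 6 h, where 6.62% of all genes were called. At 24 h in KO 13 of the 35 genes were called, where 28.0% of all genes were called. Of these 9 were lower, where 12.0% of all genes were, and 4 were higher, where 15.9% were. At 48 h in KO 2 genes were lower, where 0.7% of all genes were called lower and 3.0% in either direction. The median change there was -0.74, beside 0 for all genes, and 32 of the 35 genes were below 0. At 7 d 0 genes were called in either genotype by edgeR or by DESeq2, and the edgeR background was 0.0% in both. With edgeR 0 in WT and 3 in KO had an unadjusted p under 0.05.

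**Figure D2:**
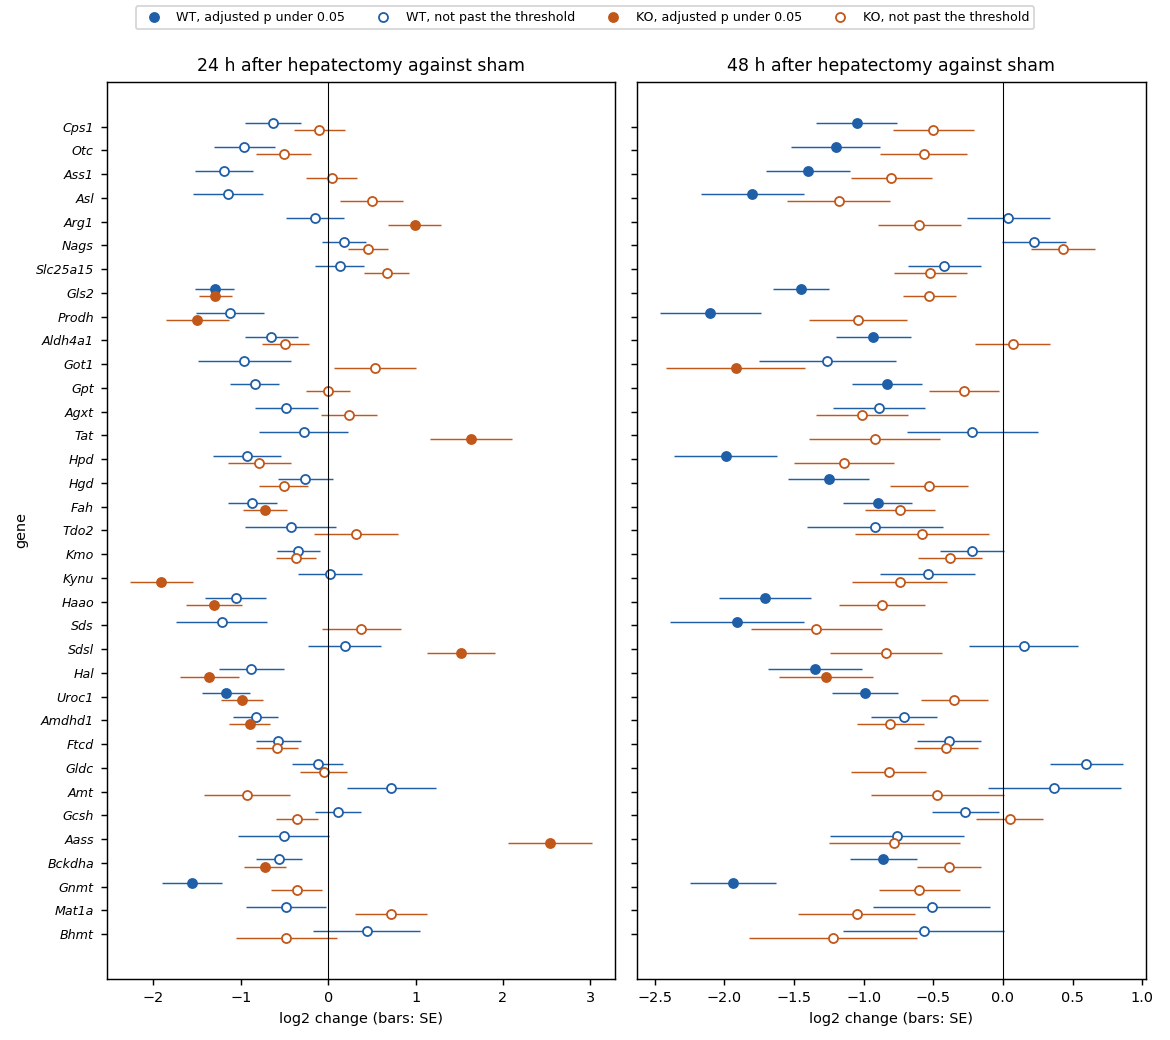
Log2 change against the sham livers of the same genotype at 24 h (left) and 48 h (right) for the 35 genes, with bars of 1 SE and filled points for an adjusted p under 0.05. At 48 h 17 WT points are filled, all below 0, and 2 KO points are filled.

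The libraries that stood apart weighed on several of these counts. Without the 6 h sham livers, 10 genes were called at 6 h in WT (8 higher, 2 lower) and 7 in KO (all higher), where 18.9% and 11.9% of all genes were called. Without WT 24 h replicate 3, 0 genes were called at 24 h in WT, and 0 of all 15942 genes tested in that fit. Without WT 48 h replicate 3, 10 genes were called at 48 h in WT, all lower, where 5.68% of all genes were called. Without KO 24 h replicate 1, 20 genes were called at 24 h in KO (5 higher, 15 lower), where 39.6% of all genes were called. Of the 17 WT calls at 48 h, those of Ass1, Asl, Gls2, Prodh, Hpd, Hgd, Haao, Uroc1 and Gnmt held whichever library was left out.

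Within the urea cycle, the enzymes from carbamoyl phosphate to arginine were lower in WT livers at 48 h, whereas arginase and the activator of the cycle were not. Of the 7 genes of the cycle, 4 fell at 48 h in WT, where 3.62% of all genes were called lower, and 0 rose. None of them passed the test at 24 h in WT or at 48 h in KO.

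Cps1, which makes carbamoyl phosphate from ammonia in the mitochondrion, stood at 2765, 2298, 2029, 1320 and 4302 CPM in the WT sham livers and at 1246, 1094, 810 and 1843 CPM at 48 h. The groups overlapped at 1 liver on each side, and the log2 change was -1.05 (SE 0.29, adjusted p = 0.0215). This call was lost without WT 48 h replicates 1 or 3, without the 6 h sham liver and without TMM scaling. Otc, which joins carbamoyl phosphate to ornithine, changed by -1.2 (SE 0.32, adjusted p = 0.0175), from 140 to 286 CPM in sham to 39.6 to 162 CPM at 48 h. Its call was lost without WT 48 h replicates 2 or 3.

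Ass1, which condenses citrulline with aspartate, had 4548, 4462, 3120, 4597 and 6661 CPM in WT sham and 2395, 1381, 1487 and 2026 CPM at 48 h. Every 48 h liver lay below every sham liver, a log2 change of -1.4 (SE 0.3, adjusted p = 0.00394). Asl, which releases arginine and fumarate, had 363, 539, 445, 550 and 1318 CPM in WT sham and 289, 176, 141 and 143 CPM at 48 h. Its groups did not overlap either, and the change was -1.8 (SE 0.37, adjusted p = 0.00321), or -1.37 (SE 0.29) without the 6 h sham liver that holds its highest value. In KO the same comparison gave -0.8 (SE 0.29, adjusted p = 0.162) for Ass1 and -1.18 (SE 0.37, adjusted p = 0.0788) for Asl. The interaction of genotype and hepatectomy at 48 h was 0.6 (SE 0.41) for Ass1 and 0.62 (SE 0.5) for Asl, neither past the threshold.

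Arg1, the cytosolic arginase that forms urea, was not called with Cps1, Otc, Ass1 and Asl at 48 h in WT. It had 1085, 717, 1813 and 553 CPM there against 756 to 1464 CPM in sham, a log2 change of 0.04 (SE 0.3). In KO at 48 h it had 706 to 832 CPM against 825 to 1569 CPM in sham, and did not pass. At 24 h in KO it rose by 0.99 (SE 0.3, adjusted p = 0.0145), with 3234, 2514 and 2674 CPM in replicates 2 to 4 but 709 CPM in replicate 1, against 825 to 1569 CPM in KO sham. The call was lost without KO 24 h replicate 2 or 4 or KO sham replicate 4.

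Slc25a15, the carrier that exchanges ornithine and citrulline across the inner mitochondrial membrane, rose at 6 h. WT livers had 690, 680 and 685 CPM at 6 h against 249, 170, 278, 186 and 544 CPM in sham, the last of these the liver taken at 6 h. The groups did not overlap, and the log2 change was 1.12 (SE 0.29, adjusted p = 0.0156). In KO it was 1.04 (SE 0.28, adjusted p = 0.0224), with 517, 753 and 564 CPM at 6 h against 190 to 436 CPM in sham. The WT call was lost without WT 6 h replicate 3 or WT sham replicate 1, and the KO call was kept in only 2 of the 8 fits that left out 1 liver. Without the 6 h sham livers the changes were 1.53 (SE 0.26) in WT and 1.29 (SE 0.25) in KO, and without a scaling factor both calls were lost.

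Nags, whose product N-acetylglutamate is required for Cps1 activity, passed no test against sham. It was the only one of the 35 genes to differ between the genotypes over the average of the 5 stages, at -0.47 (SE 0.11, adjusted p = 0.0199), where 2.72% of all genes were called. At 6 h it had 38.3, 42.9 and 43.9 CPM in KO against 70.5, 102 and 92.3 CPM in WT. The call on the average was lost without WT 7 d replicate 3, whose level of 128 CPM was above the 69 and 72 CPM of the other 7 d WT livers.

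**Figure D3:**
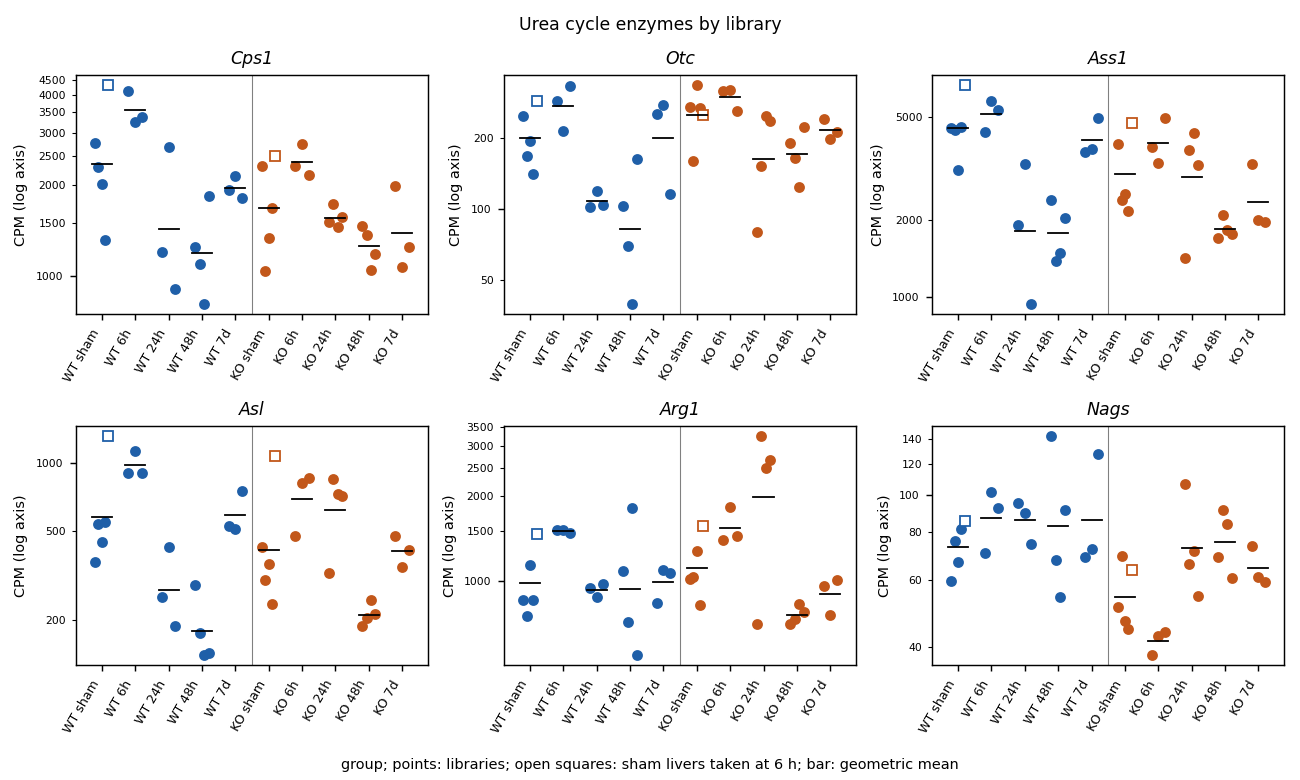
CPM on a log axis of Cps1, Otc, Ass1, Asl, Arg1 and Nags in every library by group, WT in blue and KO in orange, with open squares for the sham livers taken at 6 h and bars for geometric means. Ass1 and Asl lie below all sham livers in WT at 48 h, and Arg1 is high in 3 of the 4 KO livers at 24 h.

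All 3 genes of glutamine and proline breakdown fell in WT at 48 h, where 3.62% of all genes were called lower. In KO at 24 h 2 of them fell, where 12.0% of all genes were called lower. Gls2, the glutaminase of adult liver that frees ammonia for the urea cycle, had the smallest p of the 35 genes. Its WT sham livers lay close together at 356, 360, 376, 329 and 333 CPM, and its 48 h livers had 161, 117, 104 and 141 CPM. The groups were far apart, and the log2 change was -1.45 (SE 0.2, adjusted p = 4.48e-05). At 24 h it was -1.3 (SE 0.22, adjusted p = 0.0063) in WT and -1.29 (SE 0.19, adjusted p = 4.65e-05) in KO, with 92.9, 70, 132 and 103 CPM in the KO livers against 204 to 304 CPM in KO sham. At 48 h in KO the change was -0.53 (SE 0.19, adjusted p = 0.139), and the interaction of 0.91 (SE 0.27, adjusted p = 0.297) did not pass. The KO sham livers all lay below the WT sham livers in Gls2, so the changes in WT and KO started from unlike levels. At 48 h Gls2 had 144 to 203 CPM in KO, which overlapped the WT range. By 7 d Gls2 was back to 304 to 398 CPM in WT.

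Prodh, the mitochondrial enzyme of the first step of proline oxidation, had 182, 197, 209, 187 and 193 CPM in WT sham. At 6 h its levels were 76.7, 105 and 60 CPM, at 24 h 116, 110 and 40.3 CPM, and at 48 h 71.7, 50.8, 16.3 and 41.2 CPM. Each of these groups lay below all sham livers, and the log2 changes were -1.26 (SE 0.4, adjusted p = 0.0482) at 6 h and -2.1 (SE 0.36, adjusted p = 0.000738) at 48 h. The 6 h call was lost when any of 7 of the 8 livers compared was left out. In KO Prodh fell by 1.5 (SE 0.36, adjusted p = 0.00252) at 24 h, with 75, 23.5, 36.5 and 23.3 CPM against 71.7 to 138 CPM in sham. Aldh4a1, which completes the oxidation of proline to glutamate, changed by -0.93 (SE 0.27, adjusted p = 0.0313) at 48 h in WT and 0.07 (SE 0.27) in KO. The WT call was kept in 5 of the 9 fits that left out 1 liver. The KO sham livers, at 181 to 348 CPM of Aldh4a1, all lay below the WT sham livers, at 431 to 506 CPM. At 48 h Aldh4a1 had 252 to 376 CPM in KO and 119 to 335 CPM in WT, so the 2 changes started from unlike sham levels.

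The aminotransferases Got1, Gpt and Agxt move amino groups from aspartate, alanine and, for Agxt, from alanine to glyoxylate. Got1 was high in all livers taken at 6 h, with 688, 870 and 933 CPM in WT after hepatectomy and 903 CPM in the WT 6 h sham liver, against 188 to 322 CPM in the other WT sham livers. With the 6 h sham liver in the sham group the change was 0.96 and did not pass. Without the 6 h sham livers it was 1.78 (SE 0.44, adjusted p = 0.00563) in WT and 1.42 (SE 0.42, adjusted p = 0.0271) in KO. At 48 h in KO Got1 had 95.1, 137, 47.8 and 60.3 CPM against 190, 180, 192, 170 and 845 CPM in sham. The 48 h livers lay below all sham livers, and the change of -1.92 (SE 0.5, adjusted p = 0.0277) lost its call without the 6 h sham liver and without KO 48 h replicate 1, 3 or 4. Gpt fell by 0.83 (SE 0.25, adjusted p = 0.0349) at 48 h in WT, a call kept in 3 of the 9 fits that left out 1 liver, and Agxt gave -0.89 (SE 0.33, adjusted p = 0.0953).

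In the tyrosine pathway the entry enzyme behaved unlike the later steps. Tat, the aminotransferase that starts tyrosine breakdown, had 3504, 3787 and 4438 CPM at 6 h in WT, close to the 4356 CPM of the 6 h sham liver and above the 542 to 1131 CPM of the other WT sham livers. In KO livers at 24 h it had 834 CPM in replicate 1 and 3550, 7333 and 6856 CPM in replicates 2 to 4, against 813 to 2346 CPM in sham. The log2 change was 1.63 (SE 0.47, adjusted p = 0.0105), and the call was lost without replicate 3 or 4. At 24 h in WT Tat had 1189, 1855 and 836 CPM, a change of -0.28 (SE 0.51).

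Hpd, Hgd and Fah, which carry the product on to fumarate and acetoacetate, all fell in WT at 48 h. Hpd had 1775, 2515, 2050, 2637 and 3566 CPM in WT sham and 998, 637, 245 and 613 CPM at 48 h. The groups did not overlap, and the change was -1.99 (SE 0.37, adjusted p = 0.00156). Hgd fell by 1.25 (SE 0.29, adjusted p = 0.00644) and Fah by 0.9 (SE 0.25, adjusted p = 0.0218), and the call of Fah was lost without WT 48 h replicate 2, 3 or 4. In KO Fah fell by 0.72 (SE 0.25, adjusted p = 0.0292) at 24 h, a call kept in 5 of the 9 fits that left out 1 liver, and none of the 3 passed at 48 h.

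Among the 4 genes of the kynurenine pathway of tryptophan, Kynu and Haao changed and Tdo2 and Kmo did not pass a test against sham in the fit of all libraries. Kynu, the kynureninase, had 122, 71.4, 89.9, 100 and 74.4 CPM in KO sham and 57.2, 13.8, 13.3 and 9.62 CPM in KO livers at 24 h. All KO 24 h livers were below all KO sham livers, replicate 1 least, and the log2 change was -1.91 (SE 0.36, adjusted p = 0.000401). WT livers at 24 h had 73.4, 102 and 83.1 CPM, a change of 0.02 (SE 0.37). The KO and WT livers at 24 h did not overlap, and the difference was -1.82 (SE 0.39, adjusted p = 0.00344).

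The responses of Kynu differed between the genotypes, with an interaction of -1.92 (SE 0.51, adjusted p = 0.0214). Without KO 24 h replicate 1 the interaction was -2.94 (SE 0.31, adjusted p = 3.94e-07), and without WT 24 h replicate 3 it was -2.03 (SE 0.56, adjusted p = 0.0736). The call was also lost without WT 24 h replicate 2 and without KO 24 h replicate 2, 3 or 4, and was kept in 12 of the 17 fits that left out 1 liver. Beside this fall, the 6 Kupffer cell markers summed to 234, 46.7, 55.7 and 91.6 CPM in KO 24 h replicates 1 to 4 and to 154, 371 and 193 CPM in the WT livers at 24 h. Of these markers 5 of 6 were lower than in KO sham, where 12.0% of all genes were, and none was at 0 in the group. The part of the cell types in the result was not tested.

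Haao, which forms the precursor of quinolinate and NAD, fell by 1.71 (SE 0.33, adjusted p = 0.00167) at 48 h in WT, from 364 to 726 CPM in sham to 58.6 to 258 CPM. In KO it fell by 1.31 (SE 0.32, adjusted p = 0.00318) at 24 h, with 251, 88.9, 221 and 140 CPM against 318 to 496 CPM in sham. Tdo2, the dioxygenase that opens the pathway, ranged from 146 to 1493 CPM within the 4 KO livers at 24 h.

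Kmo, the kynurenine monooxygenase, was the gene of the 35 that differed by sex. Males had 155 to 496 CPM (median 246, n = 23) and females 97.8 to 189 CPM (median 155, n = 14). In the fit with stage and genotype the difference was 0.66 (SE 0.13, adjusted p = 0.0011), where 3.59% of all genes were called, and it held whichever library was left out. Against sham, Kmo passed without the 6 h sham livers at 6 h in WT, at 0.9 (SE 0.24, adjusted p = 0.00852), and without KO 24 h replicate 1 at 24 h in KO, at -0.65 (SE 0.23, adjusted p = 0.025). Kmo overlaps Fh1 on the opposite strand, and the strand setting of the counting is not given in the sources used here.

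**Figure D4:**
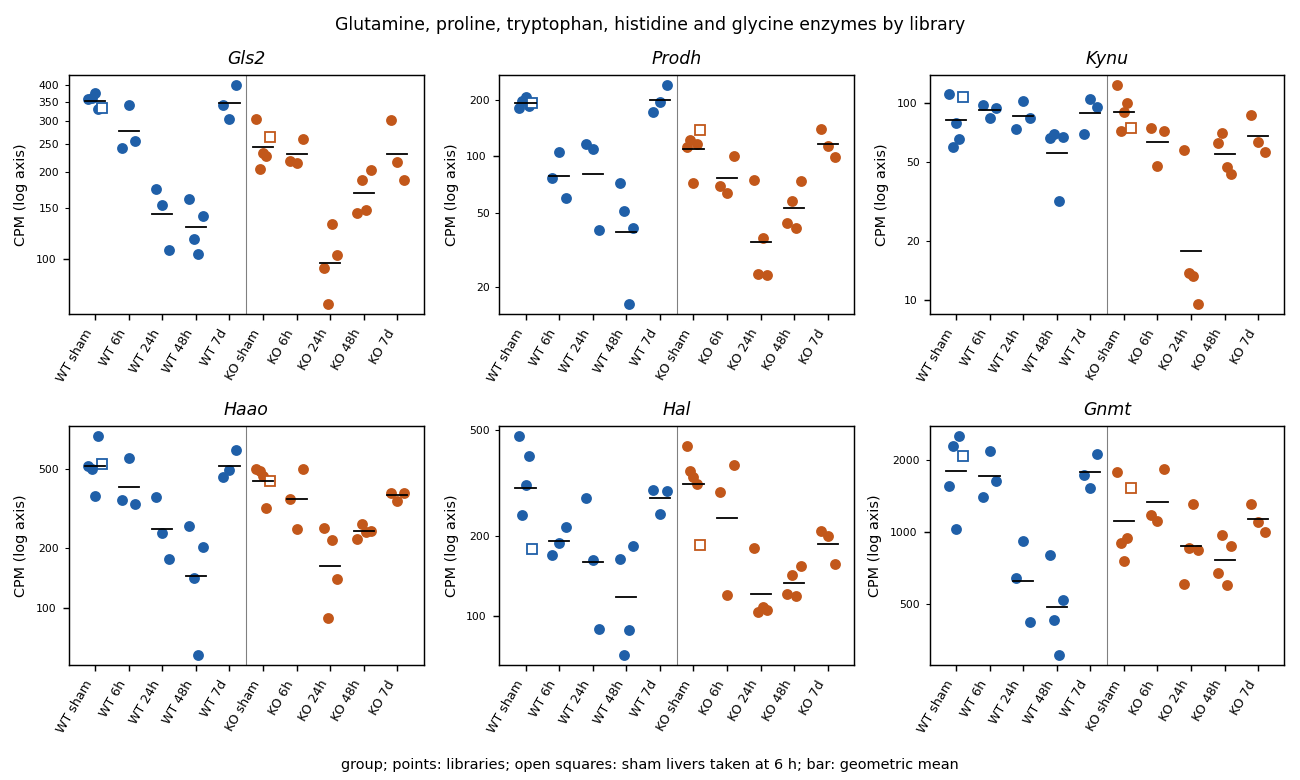
CPM on a log axis of Gls2, Prodh, Kynu, Haao, Hal and Gnmt in every library by group, WT in blue and KO in orange, with open squares for the sham livers taken at 6 h and bars for geometric means. Gls2 and Gnmt lie below all sham livers in WT at 48 h, and Kynu lies between 9.62 and 13.8 CPM in 3 of the 4 KO livers at 24 h.

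Against sham, Sds was called lower at 48 h in WT and Sdsl was called higher at earlier stages. The histidine enzymes that passed a test fell. Sds, the serine dehydratase that yields pyruvate, fell by 1.91 (SE 0.48, adjusted p = 0.0119) at 48 h in WT, with 173, 58.3, 21.1 and 45 CPM against 157 to 391 CPM in sham, and the call was lost without replicate 3. At 6 h Sds had 355 to 517 CPM in WT and 469 to 593 CPM in KO, and did not pass. The highest sham values, 391 CPM in WT and 622 CPM in KO, were those of the 6 h sham livers. Sdsl, a related serine dehydratase, rose at 6 h in WT from 9.2, 8.97, 7.39, 11.2 and 30.6 CPM in sham to 38.7, 66.1 and 47.8 CPM. The groups did not overlap, and the change was 1.72 (SE 0.43, adjusted p = 0.0142), a call lost without WT 6 h replicate 2 or 3 or WT sham replicate 1. In KO Sdsl rose by 1.52 (SE 0.39, adjusted p = 0.00487) at 24 h, with 26.4, 54.8, 50.6 and 33.8 CPM. Reads of Sds and Sdsl, which are close paralogs, may be shared between them, and Sds overlaps Plbd2 on the opposite strand.

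Hal, Uroc1, Amdhd1 and Ftcd act in turn from histidine to glutamate. Hal had 436, 351, 332, 314 and 185 CPM in KO sham, 181, 104, 108 and 106 CPM in KO at 24 h, and 121, 143, 119 and 155 CPM in KO at 48 h. Both later groups lay below all sham livers, at -1.36 (SE 0.34, adjusted p = 0.00366) and -1.27 (SE 0.34, adjusted p = 0.0299). The 24 h call held whichever liver was left out, and the 48 h call was kept in 3 of 9 such fits. In WT Hal fell by 1.35 (SE 0.34, adjusted p = 0.0111) at 48 h, kept in 6 of 9. Uroc1 fell at 24 h by 1.17 (SE 0.27, adjusted p = 0.0329) in WT and by 0.99 (SE 0.24, adjusted p = 0.00338) in KO, and by 0.99 (SE 0.24, adjusted p = 0.00884) at 48 h in WT. Of these only the WT call at 24 h was lost when 1 liver was left out, in 4 of 8 fits. Amdhd1 fell in KO at 24 h by 0.9 (SE 0.24, adjusted p = 0.00597), and Ftcd gave -0.59 (SE 0.24, adjusted p = 0.0587) there. Unlike the genes that rose at 6 h, Hal and Amdhd1 were at their lowest sham level in the 6 h sham liver of each genotype.

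Of the glycine cleavage system, the mitochondrial complex that splits glycine into carbon dioxide, ammonia and a folate-bound carbon, none of Gldc, Amt and Gcsh passed a test. Amt, its aminomethyltransferase, had 54.5 CPM in KO 24 h replicate 1 and 10.2, 5.68 and 4.56 CPM in replicates 2 to 4, against 14.7 to 54 CPM in KO sham. Its change was -0.93 (SE 0.49, adjusted p = 0.148) with replicate 1 and -2.32 (SE 0.41, adjusted p = 6.47e-05) without it.

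Aass, the mitochondrial enzyme that carries out the opening steps of lysine breakdown, had the largest rise of the 35 genes. Its gene lies on the minus strand of chr6:23072173-23132986 (GRCm38). The 250 bases before its RefSeq start, chr6:23132987-23133236 on the minus strand of GRCm38.p6, are shown because Aass had the smallest p among the genes that rose. Capitals mark TGACG, the core of the cAMP response element, 37 bases before the start, and a match on the opposite strand to TTGCNNAA, a C/EBP motif, 22 bases before it.
Aass: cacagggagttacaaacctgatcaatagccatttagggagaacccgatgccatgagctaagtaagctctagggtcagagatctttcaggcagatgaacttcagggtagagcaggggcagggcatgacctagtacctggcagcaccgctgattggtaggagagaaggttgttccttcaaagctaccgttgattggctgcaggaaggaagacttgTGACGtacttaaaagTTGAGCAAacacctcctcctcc

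Of the 35 genes 26 had a RefSeq promoter, and both strands of each were searched. TTGCNNAA was found in 3 of the 26 (11.5%, Aass, Hal and Hgd) and in 9.55% of 27025 promoters. TGACG was found in 2 (7.69%, Aass and Ftcd) and in 17.9% of all promoters. AGAACA, an arm of the glucocorticoid receptor element, was found in 2 (7.69%, Agxt and Haao) and in 16.2%. The HNF4 motif CAAAGTCCA and the HNF1 motif were found in 0 of the 26, and in 0.381% and 0.0629% of all promoters. TGACG and TTGCNNAA do not overlap in the Aass window. A match is a description of these letters and not a measured site.

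Aass had 153, 116, 152, 67.2 and 562 CPM in WT sham and 1010, 647 and 1830 CPM at 6 h in WT. In KO it had 134, 108, 117, 127 and 364 CPM in sham and 1111, 1398 and 856 CPM at 6 h. The 6 h livers lay above all sham livers in both genotypes, and the highest sham value was that of the liver taken at 6 h. The log2 change was 2.27 (SE 0.51, adjusted p = 0.00789) in WT and 2.56 (SE 0.51, adjusted p = 0.00255) in KO. Without the 6 h sham livers it was 3.09 (SE 0.48, adjusted p = 6.92e-05) and 3.1 (SE 0.47, adjusted p = 0.000154). The WT call was lost without WT 6 h replicate 3.

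At 24 h the genotypes parted. WT livers had 137, 187 and 96 CPM of Aass, and KO livers had 120 CPM in replicate 1 and 1394, 1131 and 1190 CPM in replicates 2 to 4. Replicate 1 of KO was thus within the range of WT and of the sham livers, and the other 3 were within the range of the 6 h livers. The KO change against sham was 2.54 (SE 0.48, adjusted p = 0.000373), and KO exceeded WT by 2.72 (SE 0.59, adjusted p = 0.00362). The interaction was 3.05 (SE 0.72, adjusted p = 0.0124), 3.42 (SE 0.63, adjusted p = 0.000317) without KO 24 h replicate 1, and 2.65 (SE 0.76, adjusted p = 0.0797) without WT 24 h replicate 3. At 48 h and 7 d Aass ranged from 73.5 to 151 CPM in both genotypes.

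**Figure D5:**
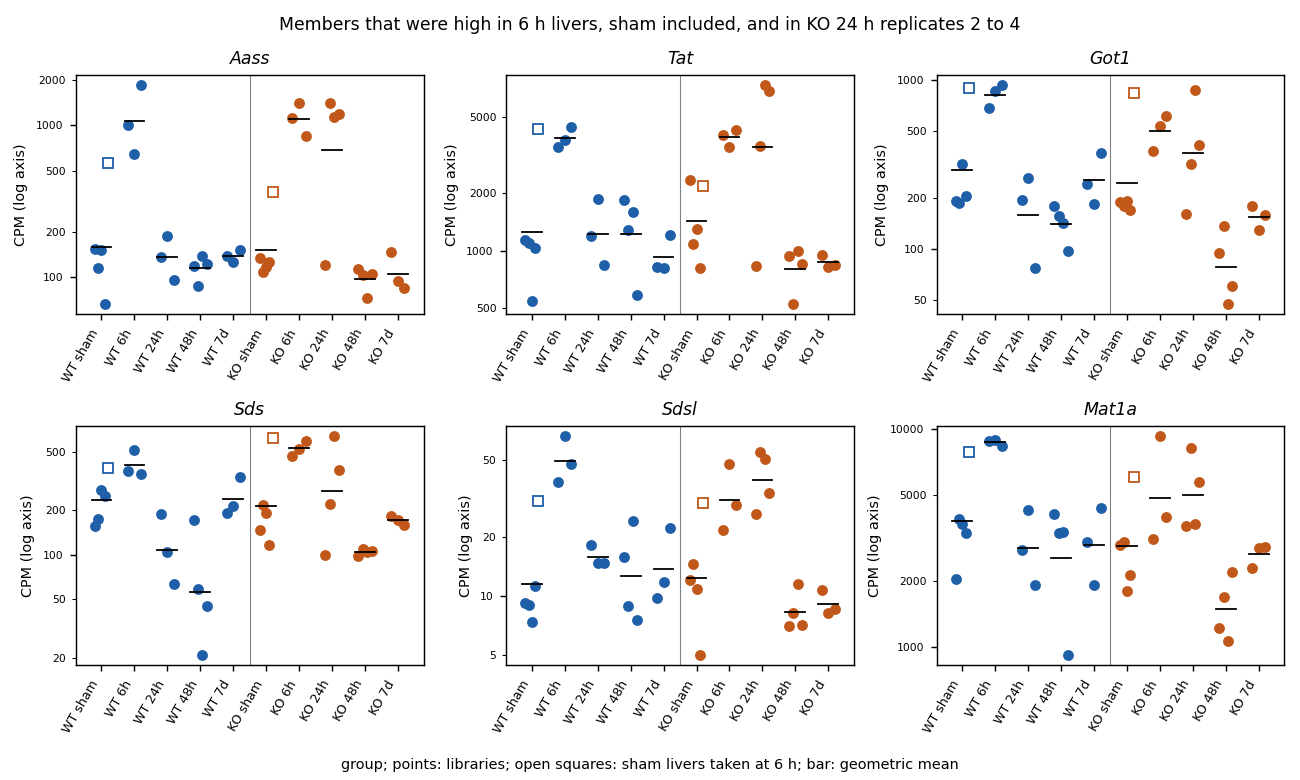
CPM on a log axis of Aass, Tat, Got1, Sds, Sdsl and Mat1a in every library by group, WT in blue and KO in orange, with open squares for the sham livers taken at 6 h and bars for geometric means. The open squares lie above the other sham livers of their genotype except for Tat in KO, and in the Aass and Tat panels 3 of the 4 KO livers at 24 h reach the level of the 6 h livers.

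Bckdha, a subunit of the dehydrogenase that commits branched-chain amino acids to breakdown, fell by 0.86 (SE 0.24, adjusted p = 0.0208) at 48 h in WT and by 0.72 (SE 0.24, adjusted p = 0.0226) at 24 h in KO. The WT call was lost without WT 48 h replicate 3 or 4. The KO call was lost without KO 24 h replicate 2 or 4, without KO sham replicate 2 or 5, and without both 6 h sham livers.

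Of the methionine genes, Gnmt fell and Mat1a and Bhmt passed no test against sham in the fit of all libraries. Gnmt uses S-adenosylmethionine to methylate glycine, Mat1a makes S-adenosylmethionine and Bhmt returns homocysteine to methionine. The windows before the starts of Gnmt (chr17:46729166-46729415, minus strand) and Hpd (chr5:123182724-123182973, minus strand) are shown because these genes were among those with the smallest p that fell. None of the 5 motifs was in either of them.
Gnmt: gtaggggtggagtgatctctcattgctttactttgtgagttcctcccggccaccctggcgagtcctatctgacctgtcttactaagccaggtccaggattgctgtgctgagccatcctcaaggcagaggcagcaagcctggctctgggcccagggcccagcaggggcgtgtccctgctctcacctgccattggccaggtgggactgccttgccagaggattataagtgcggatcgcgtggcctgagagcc
Hpd: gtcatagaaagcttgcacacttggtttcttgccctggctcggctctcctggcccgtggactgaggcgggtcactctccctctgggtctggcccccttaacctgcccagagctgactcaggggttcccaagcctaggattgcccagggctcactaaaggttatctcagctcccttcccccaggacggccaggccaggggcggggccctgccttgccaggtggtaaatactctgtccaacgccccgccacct

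Gnmt had 1557, 2296, 1027, 2508 and 2068 CPM in WT sham. The WT livers of 24 h had 641, 914 and 422 CPM, and those of 48 h had 805, 429, 308 and 519 CPM. Both later groups lay below all sham livers, and the log2 changes were -1.56 (SE 0.34, adjusted p = 0.0251) and -1.94 (SE 0.31, adjusted p = 0.000319). The 24 h call was lost without WT 24 h replicate 3 or WT sham replicate 2 or 4. In KO the changes were -0.36 (SE 0.29) and -0.6 (SE 0.29), from a sham range of 754 to 1776 CPM. The interaction was 1.2 (SE 0.44, adjusted p = 0.0773) at 24 h and 1.34 (SE 0.42, adjusted p = 0.355) at 48 h. Mat1a had 8819, 8986 and 8381 CPM at 6 h in WT, 7865 CPM in the 6 h sham liver and 2045 to 3868 CPM in the other WT sham livers. Its change at 6 h passed without the 6 h sham livers, at 1.68 (SE 0.44, adjusted p = 0.00742) in WT and 1.28 (SE 0.41, adjusted p = 0.0403) in KO.

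Bhmt, like Amt, was set apart by KO 24 h replicate 1, which had 2815 CPM against 399, 896 and 419 CPM in replicates 2 to 4 and 1203 to 2538 CPM in KO sham. The change at 24 h in KO was -0.48 (SE 0.58, adjusted p = 0.556) with replicate 1 and -1.77 (SE 0.56, adjusted p = 0.0131) without it. Without it Bhmt also passed against WT at 24 h, at -2.42 (SE 0.61, adjusted p = 0.00296), and in the interaction, at -2.19 (SE 0.74, adjusted p = 0.0315).

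The 6 h sham livers differed from the other sham livers in many genes, not all of which were called at 6 h after hepatectomy. In both genotypes 15 of the 35 genes were higher in the 6 h sham liver than in the other 4 sham livers, where 15.3% of all genes were. They were Cps1, Ass1, Asl, Arg1, Slc25a15, Got1, Hpd, Hgd, Fah, Tdo2, Kmo, Sds, Sdsl, Aass and Mat1a. Amt, Hal and Amdhd1 were lower in both, where 13.9% of all genes were. With 1 such liver in each genotype these values have no replicate check within a genotype.

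Between the genotypes, differences that passed the test were found at 24 h and in the average over stages. At 24 h 7 of the 35 genes were called, a share close to the 18.6% of all genes called. Of these, 5 were higher in KO, namely Aass, Tat, Sds, Sdsl and Arg1, where 11.1% of all genes were called higher. The 2 called lower were Kynu and Prodh, where 7.5% of all genes were. The differences were 1.82 (SE 0.56, adjusted p = 0.0243) for Tat, 1.52 (SE 0.54, adjusted p = 0.0468) for Sds, 1.41 (SE 0.46, adjusted p = 0.0339) for Sdsl, 1.29 (SE 0.35, adjusted p = 0.0137) for Arg1 and -1.17 (SE 0.39, adjusted p = 0.0345) for Prodh. Without KO 24 h replicate 1, 13 genes were called (8 higher, 5 lower), beside 5452 of all 15555 genes tested there. Without WT 24 h replicate 3, 6 genes were called, where 12.5% of all genes were. Without a scaling factor, which lowered the median difference of all genes from -0.03 to -0.39, 3 genes were called higher and 8 lower. The calls of Aass and Kynu held whichever library was left out. Of the 7 fits that left out 1 liver, the calls were kept in 5 for Arg1, 3 for Tat, 2 for Sds, 2 for Prodh and 1 for Sdsl. When the 2 groups were fitted alone, 0 of the 35 genes and 0 of all 13525 genes tested were called.

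Among the interactions, those of Aass and Kynu at 24 h passed, where 8.47% of all genes were called. Without KO 24 h replicate 1 it was 10 of the 35 genes, where 23.5% of all genes were called, and without WT 24 h replicate 3 it was 0, with 0 of all 15942 genes tested. At 6 h, 48 h and 7 d 0 interactions passed with edgeR or DESeq2. Of all genes edgeR called 0.0% there, and 0, 5 and 0 of the 35 genes had an unadjusted p under 0.05. The count of 17 genes in WT and 2 in KO at 48 h is therefore not a tested difference between the genotypes.

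In sham livers, at 6 h, at 48 h and at 7 d edgeR called 0 of the 35 genes between the genotypes, where 0.276%, 0.116%, 0.341% and 0.045% of all genes were called. At an unadjusted p under 0.05 the counts were 8, 1, 4 and 1. The share of all genes at an unadjusted p is not given, here or beside the other such counts. DESeq2 called 0, 1, 1 and 0 of the 35, beside 286, 125, 224 and 28 of all 15564 genes. In sham livers 26 of the 35 genes were below 0 in KO relative to WT, with a median of -0.29 beside -0.01 for all genes. Every KO sham liver was below every WT sham liver in Aldh4a1, Gls2, Gpt and Prodh. At 6 h this held for Cps1, Kynu, Hpd, Asl, Nags and Got1, and Gldc lay above. The share of all genes with such ranges in sham and at 6 h is not given here. At 7 d 32 of the 35 genes were below 0 in KO relative to WT, with a median of -0.36 beside 0.03 for all genes. In 18 of them every KO liver was below every WT liver, where 6.55% of all genes were. Among them were Gls2, at 302, 217 and 188 CPM in KO and 340, 304 and 398 CPM in WT, and Ass1, at 3285, 1989 and 1953 CPM in KO and 3683, 3756 and 4989 CPM in WT. Their differences were -0.53 (SE 0.23) and -0.7 (SE 0.36), both with an adjusted p of 1. The 7 d groups also differed in sex, with 2 males and 1 female in WT and 1 male and 2 females in KO, so that their ranges do not separate sex from genotype.

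Other genes of the same pathways, from lists of non-members, were more often lower than higher at 48 h in WT in 3 of 4 lists. Of all genes 3.62% were called lower and 4.68% higher in that comparison. Of 24 further genes of branched-chain and lysine catabolism 12 were lower and 0 higher, with a median of -0.74. They included Pcca (-1.08), a subunit of propionyl-CoA carboxylase, Ivd (-1.1), the isovaleryl-CoA dehydrogenase, and Auh (-0.82), a hydratase of leucine breakdown. Of 14 further aromatic and tryptophan genes 6 were lower, among them Qdpr (-1.44), which regenerates tetrahydrobiopterin, and Afmid (-1.9), the kynurenine formamidase. Of 20 further tested genes of glycine, serine, methionine and cysteine 5 were lower, among them Ahcy (-1.24), the S-adenosylhomocysteine hydrolase, and 1 was higher. The 19 further tested nitrogen genes were evenly split, with a median of -0.14. Of these Aspg (-1.85), an asparaginase, and Prodh2 (-1.42) were lower, and Asns (3.03), the asparagine synthetase, and Aldh18a1 (1.52), which makes proline, were higher.

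In KO at 24 h 9 of the 14 aromatic, 8 of the 24 branched-chain and lysine, 3 of the 20 glycine to cysteine and 3 of the 19 nitrogen genes were lower, against a background of 12.0% of all genes lower. The nitrogen list also had 3 genes higher, where 15.9% of all genes were, and a median of 0.13. Among its called genes Slc25a22 (1.43) and Asns (1.71) were higher and Aspg (-1.24), Ddo (-1.91) and Car5a (-1.92) lower. Those lower in the other lists included Kyat3 (-1.23), Aldh8a1 (-1.71), Hibch (-1.84), Acad8 (-0.93) and Shmt1 (-1.59). In the glycine to cysteine list Mat2a (2.75), the methionine adenosyltransferase found mainly outside the resting liver, and Cth (1.79), the cystathionine gamma-lyase, were higher. KO also exceeded WT at 24 h in Mat2a, by 3.18 (adjusted p = 0.00088), and in Arg2, the mitochondrial arginase, by 3.32 (adjusted p = 0.011).

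Of 16 regulators of these genes, Cebpa (-1.57), a transcription factor of mature hepatocytes, and Klf15 (-0.66), a factor that activates amino acid catabolic genes, were lower in WT at 48 h and 0 were higher. At 6 h in WT Cebpb (1.51) and Ppargc1a (1.71) were higher, and in KO Klf15 (-1.15) and Foxa2 (-1.64) were lower. At 24 h in KO Cebpb (1.19), Foxo1 (0.86) and Atf4 (0.88) were higher, and Klf15 (-0.79), Foxa2 (-1.04) and Insr (-0.73) were lower. These were 3 and 3 of the 16, where 15.9% of all genes were called higher and 12.0% lower. In WT 3.62% of all genes were called lower at 48 h and 4.16% higher at 6 h. In KO at 6 h 4.11% of all genes were called higher and 2.51% lower. Of 8 glucocorticoid and cAMP response genes, Igfbp1 and Crem were higher at 6 h in WT, and Igfbp1 and Sgk1 were higher and Tsc22d3 lower at 6 h in KO. In KO at 24 h Sgk1 (2.06), Per1 (1.94) and Igfbp1 (2.6) were higher and Tsc22d3 (-1.46) and G6pc (-2.33) lower.

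Zonal and cell type markers were measured beside these changes. In WT 3.62% of all genes were called lower and 4.68% higher at 48 h, and 3.7% lower and 4.16% higher at 6 h. In KO at 24 h 12.0% of all genes were called lower and 15.9% higher. Of 10 periportal genes outside the 35, Cyp2f2 (-2.55) and Hsd17b6 (-1.51) were lower and Cdh1 (1.4) higher at 48 h in WT. Of 12 pericentral genes Cyp2e1 (-1.82) and Cyp1a2 (-1.67) were lower. The hepatocyte markers gave 1 of 8 lower at 48 h in WT, with summed levels of 107951 to 175431 CPM against 109501 to 166961 CPM in sham. Of other cell types, 2 of 6 T and NK cell markers (median -1.81), 1 of 6 sinusoidal endothelial (-1.04), 1 of 4 B cell (-1.46) and 1 of 6 stellate cell markers (-0.3) were lower at 48 h in WT, and 1 of 6 Kupffer cell markers was higher. The T and NK cell markers summed to only 0.785 to 1.01 CPM there and the B cell markers to 0.238 to 1.76 CPM. At 6 h in WT 3 of 5 tested neutrophil markers were higher (median 3.33), with a sum of 28.3 to 67.5 CPM against 2.56 to 11.2 CPM in sham, and 2 of 4 B cell markers were lower. At 24 h WT replicate 3 had the lowest hepatocyte sum of the group, 62352 CPM against 107569 and 112659 CPM, and also the lowest median of the 35 genes relative to sham, -1.38 against -0.34 and -0.3. At 24 h in KO 5 of 6 sinusoidal endothelial, 5 of 6 Kupffer and 4 of 6 T and NK cell markers were lower than in sham. The T and NK cell markers summed to only 0.413 to 1.62 CPM in these KO livers. There 1 sinusoidal endothelial and 1 of 8 hepatocyte markers were higher. The part of cell composition in the changes of the 35 genes was not tested.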

How the data were processed

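The labels' protocols name total RNA from frozen liver and a stranded mRNA library kit. The submitters' processing notes name STAR 2.5.3a, RSEM 1.3.0 and GRCm38, without a role for each. The authors deposited 1 table of whole numbers, taken here as RSEM expected counts rounded to whole counts. Strand setting and annotation release are not given in the sources used here. No row lacked a gene name. Of the 35 genes, 11 overlap a gene on the opposite strand and 2 on the same strand in GENCODE M21, and their counts are less certain.

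In R 4.3.3, edgeR 4.0.16 kept 15564 genes (filterByExpr), scaled them by TMM and fitted 1 robust quasi-likelihood model with 10 groups and sex, at a common biological variation of 0.39. P-values were adjusted by Benjamini-Hochberg over every gene in the fit and called under 0.05. The SE of a log2 change was obtained from its F statistic. CPM uses TMM library sizes, and RPKM divides it by exon length. Contrasts were each stage against sham, KO against WT at each stage and on average, their interactions, and sex. Replicate numbers follow the order of deposition. Replicates were compared by chi-square over their counts, and since the closest pair reached 32.07 for each degree of freedom, no library was taken as a duplicate.

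Each result was recomputed with DESeq2 1.42.0, with RLE scaling, without the count filter or the sex term, on the compared groups alone, on males alone, and without the 6 h sham livers or each library in turn. A fit without a scaling factor was added after the data were seen. The members and lists were chosen with earlier results of these data known. All 35 genes are accounted for by role, those with the smallest p in most detail, and of the lists up to 3 genes in each direction with the smallest p, apart from the marker lists and the genes set beside them. Some genes that this rule would name are not reported here. Promoter windows come from RefSeq (GRCm38.p6), and windows with more than 30 annotated UTR bases were passed over. The procedure was tested on simulated data. Plots used matplotlib 3.10.9 in Python 3.11.15.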

Additional observations from a re-analysis of the deposited data

Results flagged for a closer look

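Among 135 checks for a library far from its group (27 genes in 5 groups of 4 or 5 livers), 8 values stood out, and chance gives about 1 in 20. KO 24 h replicate 1 held 3 of them, with the lowest Aass (120 CPM) and Arg1 (709 CPM) and the highest Hal (181 CPM) of its 4 livers. The KO sham liver taken at 6 h held 2, the highest Aass (364 CPM) and Got1 (845 CPM) of 5. WT 48 h replicate 3 had the lowest Hgd (76.6 CPM) and Kynu (31.6 CPM), and WT 48 h replicate 2 the lowest Amdhd1 (57.6 CPM), of 4 livers.

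The response to hepatectomy at 24 h differed between the genotypes for Aass (interaction 3.05) and Kynu (-1.92), by the test of the difference itself. These were 2 of the 35 genes, where 8.47% of all genes were called. Both calls were lost without WT 24 h replicate 3 and when the compared groups were fitted alone.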

How the results depend on the processing

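The 52 called gene results were recomputed 922 times, of which 739 kept the call, 183 lost it and 0 changed sign. Leaving out the scaling factor moved the median of all genes furthest in the interaction at 24 h, from -0.05 to -0.48, so changes under it are read against that shift. Counts over all genes follow in brackets. With the compared groups alone, genes called were 0, 0 and 9 in WT at 6 h, 24 h and 48 h (1, 0, 377), 1 and 7 in KO at 6 h and 24 h (264, 1028), 0 for KO against WT at 24 h (0) and 0 for its interaction (0), in fits with fewer samples. With males alone they were 0 and 1 in WT at 6 h and 48 h (18, 301), 1 and 0 in KO at 6 h and 48 h (380, 262), 5 for the 24 h interaction (1007) and 2 for the average (202). Without the count filter they were 8 and 8 in WT at 6 h and 24 h (2041, 1187), 4 and 9 in KO at 6 h and 48 h (1855, 828), 11 and 1 for KO against WT at 24 h and 48 h (3442, 621), 8 and 1 for the interactions at 24 h and 48 h (2361, 401), 5 for the average (1459) and 5 for sex (1093). DESeq2 called 5 in KO at 48 h (688), 1 and 1 for KO against WT at 6 h and 48 h (125, 224), 5 for the 24 h interaction (2109) and 3 for the average (865). Without a scaling factor 9 were called in WT at 6 h (2456), with 2 higher and 7 lower against 3 and 1, and 11 for KO against WT at 24 h (3297), with 3 higher and 8 lower against 5 and 2, and 1 higher and 1 lower in KO at 6 h and at 48 h, against 2 higher and 2 lower. RLE scaling gave 3 higher and 0 lower in WT at 6 h. Without the 6 h sham livers 10 were called in WT and 7 in KO at 6 h (2943, 1845). The cause of these differences was not tested.

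Leaving out 1 library at a time gave 0 to 8, 0 to 6 and 10 to 17 genes in WT at 6 h, 24 h and 48 h, and 1 to 3, 9 to 20 and 0 to 4 in KO. KO against WT gave 2 to 13 at 24 h and 0 to 1 at 48 h, the interaction at 24 h 0 to 10, the average 0 to 8, and sex 1 to 3. The other comparisons stayed at 0. Leaving out WT 6 h replicate 3 (55) or WT 24 h replicate 3 (0) gave the 0 in WT, KO 24 h replicate 4 the 9 and the 2 (2526, 998), KO 48 h replicate 1 the 0 in KO (210), and WT 7 d replicate 3 the 0 of the average (202). No paired analysis was possible because the labels give no replicate numbers. A fit of the compared groups alone was not run for the average, which uses all groups. Depth was high for these genes, and 3 to 5 livers a group limit the precision.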
